A study of Homo sapiens with 4 samples.

Results

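Interferon-stimulated and cytosolic RNA-sensing genes were followed through 4 RNA-seq libraries of ovarian cancer cell lines. The members were a fixed list of 49 gene symbols (the RNA sensor RIG-I stands as DDX58), and all 49 were found among the 52402 different symbols of the count tables. The rule names the genes and uses no measured value, but the list was chosen with earlier results of these data known. The cultures carried the labels SKOV3 and OVCAR3, both human epithelial ovarian cancer lines. For each line there was a mock control and a knockout (KO), made with CRISPR-Cas9, of env, the envelope gene of HERV-K119. This is an endogenous retrovirus, a viral copy that stands in the human genome, and belongs to the HERV-K group. Each of the 4 groups, mock and KO of either line, held 1 library. Every culture, mock included, had been transfected and treated with hygromycin at 100 μg/mL for 2 days, starting about 18 h after transfection. Whether a knockout was 1 clone or a pool, and what the mock cells received, is not given in the sources used here. As for the target, RNA of HERV-K119 was not analysed here, so the knockout was not checked.

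RNA of a virus or of an endogenous retrovirus can form double strands that cytosolic sensors such as RIG-I and MDA5 bind, and the adaptor MAVS passes their signal on to the genes of type I and type III interferons. Secreted interferon binds its receptor, the kinases JAK1 and TYK2 phosphorylate STAT proteins, and STAT2 joins IRF9 in the complex ISGF3. ISGF3 binds the interferon-stimulated response element (ISRE) in the promoters of many genes, whose products degrade, edit or trap viral RNA or block viral entry. Several of these genes also have a basal level without interferon.

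Promoters show the shared element, and its shares over windows use no expression value. RefSeq promoter windows (GRCh38.p14, 250 bases before to 50 bases after a start site) were at hand for 39 of the 49 members. The ISRE core was searched as GAAANNGAAA on both strands (TTTCNNTTTC on the reverse). It stood in 24 of the 39 member windows (61.5%), against 1255 of 35116 windows of all genes (3.57%). The gamma-activated site, searched as TTCNNNGAA, which reads the same on both strands, stood in 11 member windows (28.2%) and in 7.66% of all windows. With 1 or 2 bases between the half-sites (GAAANGAAA or GAAANNGAAA), the core stood in 29 member windows (74.4%) and in 6.40% of all windows. Overlapping matches were counted separately, and a match is a match of letters, not a measured binding site. Below, the 5 windows of the members with an ISRE core and the highest mean level are given from 150 bases before to 24 bases after the start, with the core in capitals. IFI27 and RTP4 follow because they hold the same element and had no count in any library, and these 2 were chosen after their values were seen.
IFITM3 (chr11:320837-321010, minus strand): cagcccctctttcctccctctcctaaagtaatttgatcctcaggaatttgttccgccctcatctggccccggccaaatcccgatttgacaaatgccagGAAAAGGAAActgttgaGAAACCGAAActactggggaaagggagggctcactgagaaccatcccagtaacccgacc
EIF2AK2 (chr2:37156957-37157130, minus strand): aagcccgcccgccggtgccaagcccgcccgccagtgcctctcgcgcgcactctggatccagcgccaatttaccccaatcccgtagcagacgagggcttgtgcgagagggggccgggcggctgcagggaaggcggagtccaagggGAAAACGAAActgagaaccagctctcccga
ISG15 (chr1:1013347-1013520, plus strand): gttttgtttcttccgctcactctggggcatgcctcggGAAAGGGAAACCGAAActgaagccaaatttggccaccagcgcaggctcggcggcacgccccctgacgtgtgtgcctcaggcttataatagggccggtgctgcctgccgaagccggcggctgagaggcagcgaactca
IFIT5 (chr10:89414418-89414591, plus strand): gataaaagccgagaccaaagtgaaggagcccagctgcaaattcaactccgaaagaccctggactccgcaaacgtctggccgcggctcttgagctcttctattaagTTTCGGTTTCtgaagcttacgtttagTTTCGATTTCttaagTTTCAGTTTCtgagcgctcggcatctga
OAS3 (chr12:112938324-112938497, plus strand): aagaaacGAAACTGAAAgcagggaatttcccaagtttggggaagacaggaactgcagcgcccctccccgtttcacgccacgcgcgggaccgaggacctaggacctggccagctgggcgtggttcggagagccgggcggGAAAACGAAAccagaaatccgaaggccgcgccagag
IFI27 (chr14:94110586-94110759, plus strand): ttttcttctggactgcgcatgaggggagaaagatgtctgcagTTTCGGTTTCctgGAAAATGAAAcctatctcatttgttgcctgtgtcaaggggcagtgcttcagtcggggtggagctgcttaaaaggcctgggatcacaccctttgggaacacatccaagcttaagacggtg
RTP4 (chr3:187368235-187368408, plus strand): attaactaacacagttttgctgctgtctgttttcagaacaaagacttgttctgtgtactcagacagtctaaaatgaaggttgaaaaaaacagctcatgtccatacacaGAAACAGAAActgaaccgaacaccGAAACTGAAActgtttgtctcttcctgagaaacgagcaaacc
The core of IFITM3 began 52 and 35 bases before the start, that of EIF2AK2 lay across the start, and the run of ISG15 held 2 overlapping cores. In IFIT5 there were 3 cores, all on the reverse strand and all within 45 bases of the start. IFI27 carried 1 core on each strand, and the window printed for it begins inside the annotated gene, at a transcript start other than the outermost one. RTP4 carried 2 forward cores within 42 bases of its start. All of these windows were chosen for holding a core, so its presence in them is by selection. IFI27 and RTP4 were the only 2 members without a count in any library. A core was not found for every abundant member: the single windows searched for ADAR, SP100 and SAMHD1 had none. Other start sites of these genes were not searched.

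**Figure D1:**
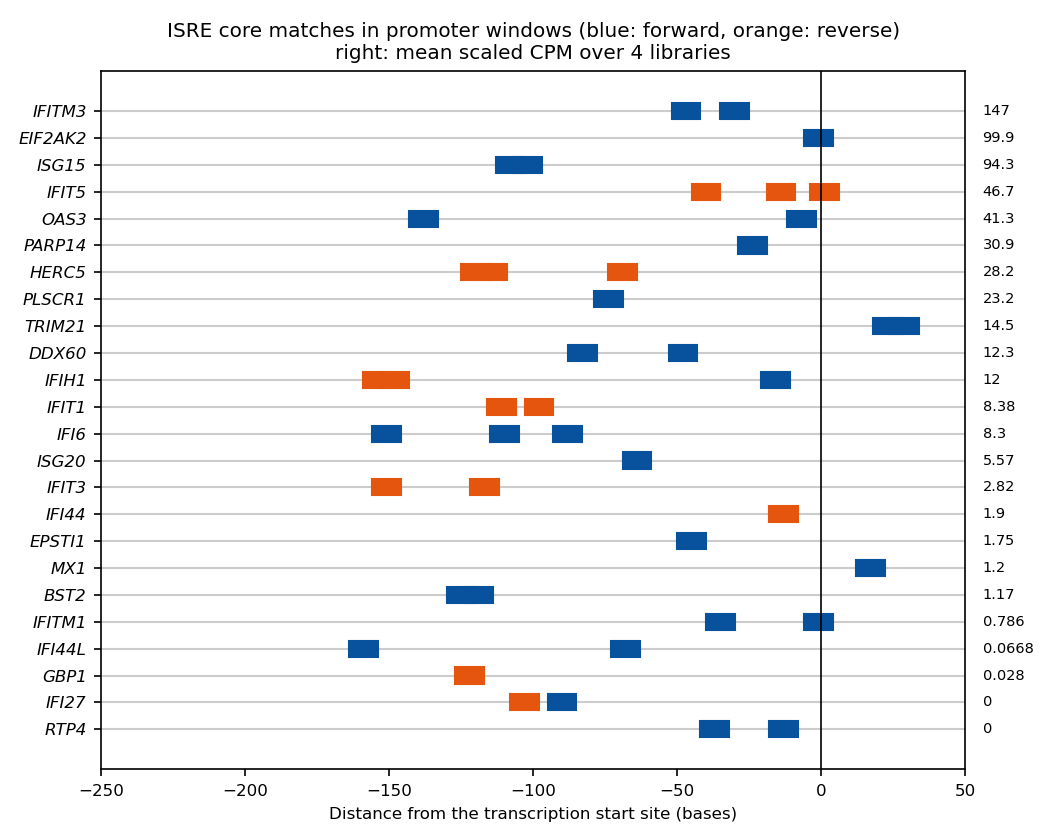
Positions of ISRE core matches (boxes, blue on the forward and orange on the reverse strand) in the promoter windows of the 24 members that hold 1, as distance from the start site in bases. Members are ordered by mean scaled CPM over the 4 libraries (right), from IFITM3 at 147 to IFI27 and RTP4 at 0, and all 44 matches begin between 164 bases before and 24 bases after the start.

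Levels are given as CPM (counts scaled to library size, with TMM factors), always in the order SKOV3 mock and KO, then OVCAR3 mock and KO. Library totals lay between 15145483 and 22057693 counts, and a count of 0 allows up to 3 counts, or between 0.133 and 0.204 CPM. A ratio is the log2 of KO over mock after adding a prior count of 2. Brackets hold the 95% Clopper-Pearson interval of the ratio of the 2 counts, which, like the floor, covers counting error alone, since reads carried no molecular identifiers. A gene counted as measured in a pair if it had at least 1 CPM in 1 of its libraries, and as higher or lower if the ratio was also at least 2-fold. With 1 library per group no ratio within a line has a replicate check or a p-value.

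The OVCAR3 KO library stood apart from the other 3. Mitochondrially encoded rows took 21.9% of its counts, against 5.16% to 5.93% elsewhere, the nuclear RNA NEAT1 had 1612 CPM against 142 to 446, and the summed level of 7 epithelial markers was 2140 CPM against 5275 to 7827. All 7 epithelial markers were counted in every library, which fits an epithelial label, while PTPRC and CD3E, the defining genes of leukocytes and T cells, were at 0 in all 4. The summed leukocyte list (7 genes) lay at 36.3, 36.0, 16.6 and 10.3 CPM and was mostly CD68. Of 5 ovarian cancer markers, WT1 and SOX17 were at 0 in all 4 libraries, PAX8 had 3.33 to 8.83 CPM and MSLN 20.1 to 41.0 CPM. MUC16 had 1 count in each SKOV3 library and 2.74 and 6.18 CPM in OVCAR3 mock and KO. The 4 markers of plasmacytoid dendritic cells, the professional interferon producers, summed to 0.133 CPM or less. CDKN2A, which is deleted in SKOV3, had 90.6 and 91.2 CPM in the libraries labelled SKOV3, so the line names below are names of libraries. In such bulk libraries fewer cells of a type and less RNA per cell cannot be told apart.

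In the cells of both labels some members were abundant in every library, and classic members of the same families were close to absent. The series had no interferon-treated library, so whether interferon set these levels was not tested. Of the 49 members, 31 had at least 1 CPM in all 4 libraries and 40 in at least 1, and 29 reached 5 CPM somewhere. Per library, 33, 34, 33 and 39 of the 49 members had at least 1 CPM. Of all protein-coding genes, 61.1%, 61.5%, 61.9% and 64.8% did so. The member levels summed to 1068, 1092, 1206 and 1006 CPM. Thus the total differed little between libraries, and it was lowest in OVCAR3 KO.

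Per kilobase of the longest transcript, the order of the members began with IFITM3, at 162 to 226 CPM per kb over the libraries, a membrane protein that blocks viral entry. ISG15, a ubiquitin-like modifier, followed at 88.6 to 143 CPM per kb, below the range of IFITM3. IFITM2 (34.3 to 48.4 CPM per kb) and the RNA-editing enzyme ADAR (19.8 to 43.7) overlapped each other and lay below both. SP100, UBE2L6, IFIT5, PLSCR1, EIF2AK2 and IFI6 came next, with means between 9.86 and 14.8 CPM per kb and ranges that overlapped from each one to the next. IFITM1, IFITM2 and IFITM3 share part of their sequence (42.3%, 15.8% and 20.3% of their 50-base stretches occur in other genes, mainly in each other), so the split of reads between them is uncertain.

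At the other end, IFI27, a small protein of strongly induced signatures, and RTP4, a chaperone of receptors, had a count of 0 in all 4 libraries. The other 7 members that stayed below 1 CPM everywhere were OAS2, IRF7, MX2, GBP1, IFI44L, RSAD2 and XAF1, with at most 11 counts in a library. OAS2 had the highest value among them, 0.698 CPM in SKOV3 KO. IRF7, the factor that amplifies interferon production, had 6, 2, 3 and 2 counts, and RSAD2, the antiviral enzyme viperin, had 4, 4, 2 and 8.

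Neighbours on a chromosome differed widely. The OAS genes lie side by side on chromosome 12 (chr12:112906962-112933219 for OAS1, chr12:112938474-112973251 for OAS3 and chr12:112978519-113011723 for OAS2, GRCh38.p14). OAS3 had a mean of 6.14 CPM per kb over the libraries, OAS1 0.257 and OAS2 0.0659. In the IFIT cluster on chromosome 10, IFIT5 had a mean of 11.6 CPM per kb, against 1.99 for IFIT2, 1.82 for IFIT1 and 1.13 for IFIT3. On chromosome 21, MX1 had a mean of 0.345 CPM per kb, and its neighbour MX2 had 2 counts in OVCAR3 mock and none elsewhere. On chromosome 1, IFI44 had 1.13 CPM per kb and IFI44L 0.0114. Thus in each of these clusters the gene with the highest mean lay above its listed neighbours in every library.

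**Figure D2:**
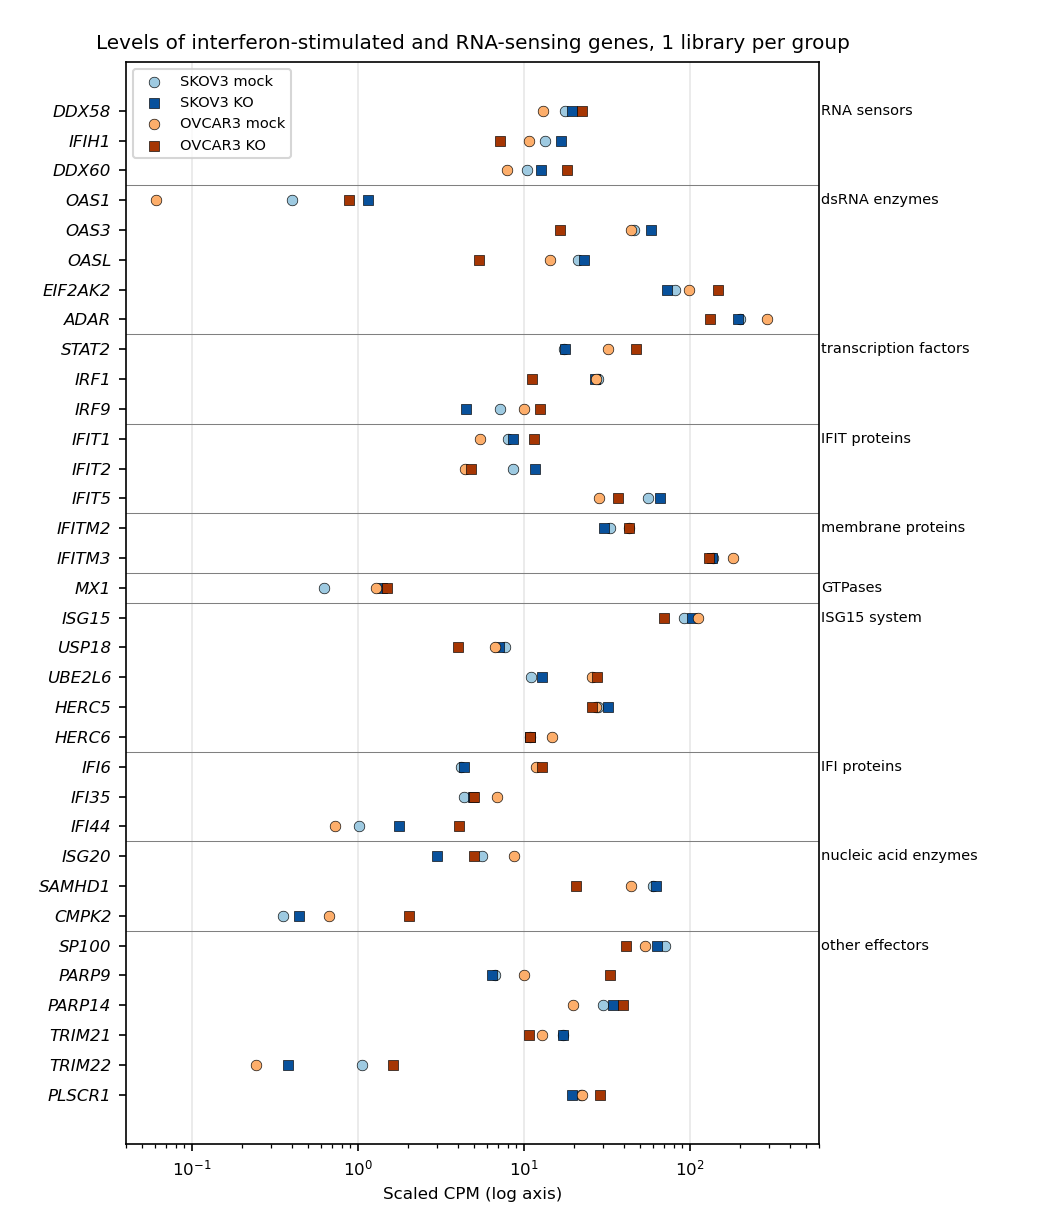
Scaled CPM (log axis) of the 34 members that reached 5 CPM in a library or passed the size rule with at least 20 counts over a pair, 1 point per library, grouped by role. Light symbols are mock and dark symbols KO libraries; IFITM3, ADAR, EIF2AK2 and ISG15 lie between 69.7 and 292.8 CPM in every library, while OAS1, MX1, CMPK2 and TRIM22 stay at about 2 CPM or less.

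Upstream of the members, interferon genes themselves were hardly counted while receptors and signalling proteins were present. Over 12 interferon genes, IFNA1, IFNA2, IFNA5, IFNA8, IFNW1, IFNG and IFNL3 had a count of 0 in every library, and IFNB1 had 1 count in OVCAR3 mock. IFNE, an epithelial type I interferon, had 3, 1, 1 and 23 counts, a log2 ratio of 3.25 (2.06 to 10.0) in the OVCAR3 pair, and is named because it was 1 of few past the size rule, after its values were seen. The receptor chains of type I interferon were at 52.3, 54.1, 50.2 and 64.6 CPM (IFNAR1) and at 9.79, 13.3, 16.7 and 20.5 CPM (IFNAR2). JAK1 had 63.6, 50.6, 123.9 and 79.2 CPM, and TYK2 had 48.5, 54.6, 50.4 and 33.2 CPM. JAK1 was thus highest in OVCAR3 mock, and TYK2 was lowest in OVCAR3 KO. Among sensors' partners, MAVS had 110.6, 117.0, 192.5 and 282.8 CPM, the kinase TBK1 had 54.4, 57.3, 43.1 and 59.4 CPM, and the factor IRF3 had 39.8, 46.5, 43.0 and 38.8 CPM. The DNA sensor cGAS (MB21D1) had 0, 1, 0 and 3 counts, and the induced chemokine genes CXCL9 and CCL5 had none.

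Over this upstream list of 57 genes, 0 of 38 measured passed the size rule in the SKOV3 pair, and in the OVCAR3 pair 2 of 39 were higher and 8 lower. The 2 higher genes were IFNE and TREX1, an exonuclease that clears cytosolic DNA, at 4.38 and 8.96 CPM in OVCAR3 mock and KO. Among the 8 lower ones, STAT3, a signal transducer of cytokines, had 125.8 CPM in mock and 43.5 in KO, a log2 ratio of -1.53 (-1.66 to -1.40). TICAM1, the adaptor of the endosomal RNA receptor TLR3, was at 57.0 and 11.1 CPM (-2.35, -2.61 to -2.12), and TRIM25, a ubiquitin ligase that acts on RIG-I, at 330.3 and 86.7 CPM (-1.93, -2.02 to -1.84). These are genes of signal transmission rather than interferon targets alone. LGALS3BP, a secreted glycoprotein, had -1.71 (-1.81 to -1.62), IRF5 -1.15 (-1.45 to -0.87) and the adaptor STING (TMEM173) -1.04 (-1.36 to -0.74). SOCS1, a feedback inhibitor, had 35 counts in mock and 5 in KO. TANK, a scaffold of TBK1, had 0.98 (0.84 to 1.13), just short of the rule. With a trend on GC content and length over protein-coding genes removed, 2 upstream genes were higher and 7 lower: IRF5 (-0.65) and TMEM173 (-0.76) fell short of 2-fold, and TANK was at 0.28. Without trend removal, the 2 higher and 8 lower genes are 5.13% and 20.5% of the 39 measured. In the same OVCAR3 pair 22.5% of all 15560 measured genes were higher and 15.4% lower by this rule. Of protein-coding genes 13.0% were higher and 18.1% lower. Of those with a mean of at least 5 CPM 6.95% were higher and 19.8% lower, close to the shares of the list.

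In the SKOV3 pair most members differed little between mock and KO. Of 35 measured, 23 had a ratio above 0, and of all 13524 measured genes 6907 did. The median was 0.07 over members, against 0.005 over all measured genes. Of the 29 members with a mean of at least 5 CPM, 18 were above 0, with a median of 0.05. Of 10459 protein-coding genes of that level 5201 were above 0. By the size rule OAS1 and MX1 were higher and TRIM22 was lower, which is 5.71% and 2.86% of the measured members. Over all measured genes 0.799% were higher and 0.739% lower. All 3 members rest on few counts: OAS1 had 9 and 18 counts in mock and KO (1.29, 0.29 to 2.86), MX1 14 and 22 (1.04, 0.14 to 2.25), and TRIM22 24 and 6 (-1.25, -3.06 to -0.15). The SKOV3 shares therefore come from members between 0.38 and 1.40 CPM, and with a minimum of 5 CPM no member passed. Over the 29 members with a mean of at least 5 CPM, the SKOV3 log2 ratios had an SD of 0.274, against 0.217 over the 10962 genes of that level, and none exceeded 0.88 in size.

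In the OVCAR3 pair members differed in both directions, as genes there did in general. Of 39 measured, 21 had a ratio above 0, and of all 15560 measured genes 8738 did. The median was 0.10 over members, against 0.16 over all measured genes and -0.02 over protein-coding ones. Members past the size rule were 6 higher (DDX60, IFIT1, IFI44, CMPK2, PARP9 and TRIM22) and 5 lower (OAS3, OASL, ADAR, IRF1 and SAMHD1). These are 15.4% and 12.8% of the measured members, against 22.5% and 15.4% of all measured genes. Of the protein-coding genes alone, 13.0% were higher and 18.1% lower, so the member share of higher genes lay below the first background and above the second. The split depended on scaling: with TMM factors from all genes, an alternative added after seeing the data, 4 were higher and 7 lower (all genes 17.1% and 22.5%), and with DESeq2 size factors 4 and 5 (18.4% and 20.3%). The median of all genes shifted from 0.16 to -0.17 and -0.07 under these 2 scalings, and the member median to -0.19 and -0.10, so its sign was not fixed. The member median minus the median of all genes was -0.05, -0.02 and -0.03 with the main factors and under these 2 scalings in turn. Over the 29 members with a mean of at least 5 CPM the SD of the OVCAR3 ratios was 0.817, against 0.978 over all genes of that level.

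**Figure D3:**
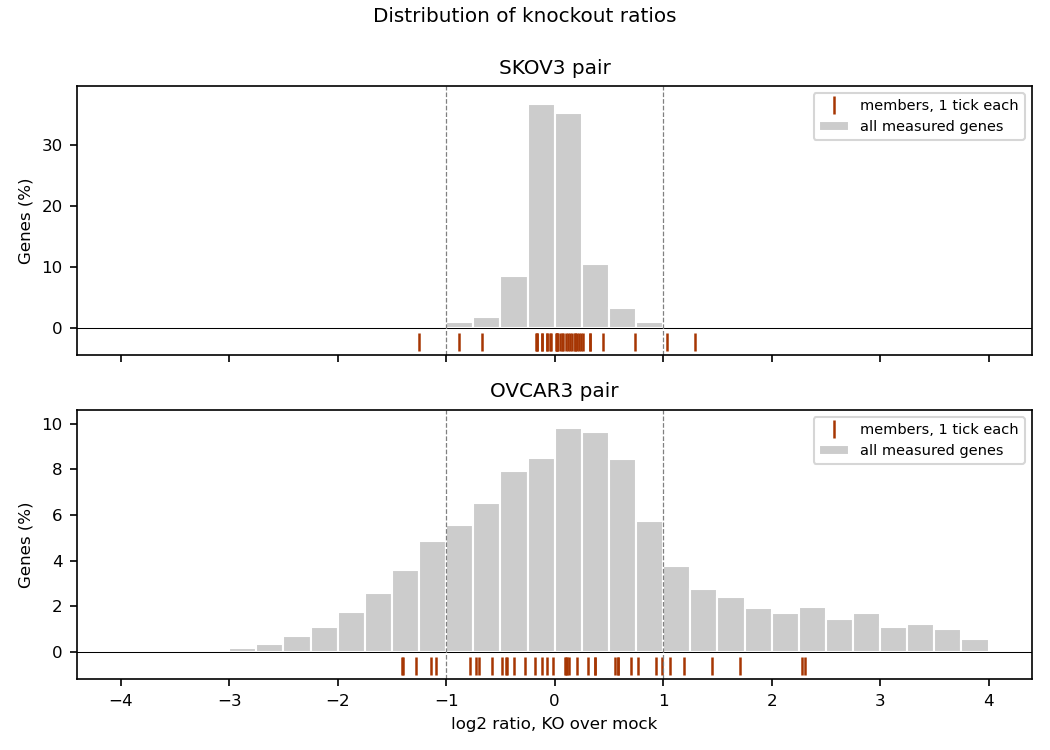
Distribution of log2 ratios of KO over mock over all measured genes (grey bars, percent of genes per 0.25 step, genes beyond 4 in size not drawn) with 1 tick per measured member, for the SKOV3 pair (top, 35 members) and the OVCAR3 pair (bottom, 39 members). Dashed lines mark 2-fold; the member ticks run from -1.25 to 1.29 in SKOV3 and from -1.40 to 2.31 in OVCAR3.

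Among the cytosolic sensors, RIG-I and DDX60 were above mock and MDA5 below it in the OVCAR3 pair. DDX58 (RIG-I), which binds short RNA with a triphosphate end, was at 17.7, 19.6, 13.0 and 22.3 CPM, with ratios of 0.15 (-0.07 to 0.36) in SKOV3 and 0.77 (0.53 to 1.03) in OVCAR3. IFIH1 (MDA5), which binds long double strands, was at 13.3, 16.7, 10.7 and 7.13 CPM, with 0.33 (0.09 to 0.57) and -0.58 (-0.95 to -0.23). DDX60, a helicase that acts beside RIG-I, was at 10.5, 12.6, 7.91 and 18.2 CPM, with 0.26 (-0.01 to 0.54) and 1.19 (0.89 to 1.51). The 2 sensors of double-stranded RNA thus had opposite directions in OVCAR3, with intervals away from 0 on both sides. DDX60 was past 2-fold under 5 of 8 settings of scaling, prior count and trend removal. Its relative DDX60L was also higher, 23.6 and 48.1 CPM in OVCAR3 mock and KO (1.03, 0.85 to 1.21). DHX58 (LGP2), a regulator of both sensors, reached 1.15 CPM at most.

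The enzymes that double-stranded RNA activates, or that act on it, held 3 of the 5 lower members of the OVCAR3 pair, with 4 measured there. In that pair 18.1% of protein-coding genes were lower, and 19.8% of those with a mean of at least 5 CPM. OAS3, which makes oligoadenylates, messengers of RNA decay, was at 46.4, 58.3, 43.9 and 16.6 CPM, with 0.33 (0.20 to 0.46) in SKOV3 and -1.40 (-1.62 to -1.197) in OVCAR3. OASL, a relative that supports RIG-I signalling, was at 21.1, 23.0, 14.4 and 5.36 CPM, with 0.12 (-0.08 to 0.32) and -1.40 (-1.81 to -1.05). ADAR, which turns adenosine into inosine in double strands, was at 201.3, 195.0, 292.8 and 132.8 CPM, with -0.05 (-0.11 to 0.02) and -1.14 (-1.22 to -1.06). For all 3 the OVCAR3 KO library was the lowest of the 4 libraries. With the trend on GC content and length removed, OAS3 (-0.92) and ADAR (-0.89) fell short of 2-fold, and OASL (-1.17) did not. EIF2AK2 (PKR), a kinase that halts translation, differed from these 3 in OVCAR3, at 81.5, 72.6, 98.2 and 147.5 CPM, with -0.17 (-0.28 to -0.06) in SKOV3 and 0.59 (0.49 to 0.68) in OVCAR3. Its OVCAR3 ratio was 0.30 with TMM factors from all genes and 0.10 with the trend on GC content and length removed. Its exons overlap GPATCH11 on the opposite strand, and GPATCH11 had 0.44 in both pairs. OAS1 had 9, 18, 1 and 13 counts and was not measured in OVCAR3.

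The factors of ISGF3 and IRF1 did not move together. STAT2 was at 17.5, 17.8, 32.3 and 47.6 CPM, with 0.02 (-0.21 to 0.24) in SKOV3 and 0.56 (0.40 to 0.73) in OVCAR3. IRF1, a factor of the interferon gamma response, was at 28.0, 26.7, 27.3 and 11.2 CPM, with -0.07 (-0.25 to 0.11) and -1.28 (-1.55 to -1.02). For IRF1 the OVCAR3 KO library alone lay apart, whereas STAT2 also separated the labels. IRF9 was at 7.22, 4.50, 10.0 and 12.4 CPM, with -0.67 (-1.10 to -0.27) and 0.30 (-0.005 to 0.62). All of its 50-base stretches also occur in an overlapping readthrough transcript (AL136295.5) that the tables do not list, so its counts are uncertain.

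The IFIT proteins, which bind the ends of foreign RNA, were all at or above their mock level by point estimate in both pairs. IFIT1 was at 8.02, 8.63, 5.42 and 11.5 CPM, with 0.10 (-0.23 to 0.44) in SKOV3 and 1.07 (0.70 to 1.47) in OVCAR3. IFIT5 was at 55.8, 66.0, 28.3 and 36.7 CPM, with 0.24 (0.12 to 0.36) and 0.37 (0.19 to 0.56). IFIT2, which overlaps LIPA on the opposite strand and shares 8.40% of its 50-base stretches with other genes, was at 8.55, 11.7, 4.44 and 4.82 CPM, with 0.44 (0.15 to 0.75) and 0.11 (-0.38 to 0.61). IFIT1 alone passed 2-fold, in OVCAR3, and did so under 4 of 8 settings. With DESeq2 size factors, library totals, TMM factors from all genes or the trend on GC content removed, IFIT1 stayed above 0 but under 2-fold, down to 0.78. The smaller OVCAR3 ratios of IFIT2, IFIT3 and IFIT5 lay within 0.38 of 0, and with that trend removed they were -0.14, -0.14 and -0.21, so their direction depended on it. IFIT3 was the least counted of the 4, with 31 to 59 counts a library.

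The membrane proteins that restrict viral entry or release differed little between mock and KO in SKOV3. IFITM3 was at 138.6, 135.2, 182.8 and 130.5 CPM, with -0.04 (-0.12 to 0.04) in SKOV3 and -0.49 (-0.57 to -0.40) in OVCAR3. IFITM2 was at 33.1, 30.6, 43.2 and 42.8 CPM, with -0.12 (-0.28 to 0.05) and -0.01 (-0.17 to 0.15). OVCAR3 mock was the highest library for IFITM3, and both OVCAR3 libraries were above SKOV3 for IFITM2. BST2 (tetherin), which holds budding virus at the cell surface, had 7, 6, 34 and 28 counts, and IFITM1 had 11, 5, 15 and 21. Of the GTPases, MX1, which blocks incoming viral nucleocapsids, had 0.620, 1.40, 1.28 and 1.49 CPM, so SKOV3 mock was the low library. GBP2 had 6 to 20 counts and GBP1 at most 1.

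The ISG15 system was lower in OVCAR3 KO for 4 of its 5 genes by point estimate, none by 2-fold. In that pair 5742 of 10461 protein-coding genes with a mean of at least 5 CPM were also below 0. ISG15 was at 92.0, 102.9, 112.7 and 69.7 CPM, with 0.16 (0.07 to 0.26) in SKOV3 and -0.69 (-0.81 to -0.58) in OVCAR3. USP18, which removes ISG15 from proteins and dampens the interferon receptor, was at 7.71, 7.10, 6.70 and 4.0 CPM, with -0.12 (-0.47 to 0.23) and -0.72 (-1.22 to -0.27). It shares 23.4% of its 50-base stretches with USP41 and other copies, and USP41 had no count in any library. The conjugating enzyme UBE2L6 was at 10.98, 12.8, 25.8 and 27.6 CPM, with 0.22 (-0.05 to 0.50) and 0.10 (-0.10 to 0.30). It followed the label of the line and not the knockout. The ligase HERC5 was at 27.9, 32.2, 27.1 and 25.7 CPM, with 0.20 (0.03 to 0.38) and -0.07 (-0.28 to 0.13). Its relative HERC6 was at 10.8, 10.9, 14.7 and 10.9 CPM, with 0.01 (-0.28 to 0.30) and -0.44 (-0.74 to -0.15).

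Among IFI6, IFI27, IFI35, IFI44 and IFI44L, IFI44 was the one higher in the OVCAR3 pair by 2-fold, and IFI27 and IFI44L were not measured there. IFI44 was at 1.02, 1.78, 0.730 and 4.07 CPM (23, 28, 12 and 60 counts), with 0.74 (-0.05 to 1.66) in SKOV3 and 2.31 (1.57 to 3.51) in OVCAR3. IFI6, a small membrane protein of mitochondria, was at 4.16, 4.38, 11.7 and 12.9 CPM, with 0.07 (-0.40 to 0.54) and 0.13 (-0.16 to 0.43). IFI35 was at 4.34, 4.95, 6.88 and 5.02 CPM, with 0.18 (-0.26 to 0.63) and -0.45 (-0.90 to -0.02). IFI44 was thus low in level but higher in both knockout libraries, with an interval away from 0 in OVCAR3 only, while IFI6 separated the labels. EPSTI1 had 22 to 37 counts a library.

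Enzymes of nucleic acids and nucleotides went both ways. SAMHD1, which breaks down nucleotides needed for reverse transcription, was at 60.3, 62.5, 44.1 and 20.6 CPM, with 0.05 (-0.07 to 0.17) in SKOV3 and -1.09 (-1.29 to -0.90) in OVCAR3. ISG20, an exonuclease, was at 5.58, 2.98, 8.70 and 5.02 CPM, with -0.88 (-1.42 to -0.41) and -0.78 (-1.22 to -0.38). CMPK2, a mitochondrial nucleotide kinase, had 8, 7, 11 and 30 counts, with 1.46 (0.57 to 2.75) in OVCAR3. ISG20 and SP100 were the 2 members whose intervals lay below 0 in both pairs. CMPK2 overlaps RSAD2 on the opposite strand, and without a stated strand setting reads of the overlap cannot be told apart.

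The remaining effectors held the clearest higher member of the OVCAR3 pair by count. PARP9, which works with the ubiquitin ligase DTX3L, was at 6.73, 6.41, 10.0 and 33.2 CPM (165 and 489 counts in OVCAR3 mock and KO), with -0.07 (-0.45 to 0.30) in SKOV3 and 1.71 (1.47 to 1.99) in OVCAR3. DTX3L itself, which overlaps PARP9 on the opposite strand, was at 15.2, 16.8, 17.2 and 25.7 CPM, with 0.57 (0.35 to 0.80) in OVCAR3. The pair thus moved the same way there, PARP9 further than DTX3L. PARP14, another enzyme of ADP-ribosylation, was at 30.1, 34.3, 19.7 and 39.3 CPM, with 0.19 (0.03 to 0.36) and 0.99 (0.80 to 1.195), just under 2-fold. TRIM22, a ubiquitin ligase, had 24, 6, 4 and 24 counts, with -1.25 in SKOV3 and 2.28 (1.201 to 4.73) in OVCAR3. It was high in SKOV3 mock and OVCAR3 KO and low in the other 2 libraries. SP100, a protein of nuclear bodies, was at 71.1, 63.5, 53.8 and 41.5 CPM, with -0.16 (-0.28 to -0.05) and -0.37 (-0.53 to -0.22), and shares 13.3% of its 50-base stretches with HMGB1 copies. TRIM21, an antibody receptor in the cytosol, was at 17.1, 17.3, 12.9 and 10.7 CPM, with 0.02 (-0.21 to 0.25) and -0.27 (-0.58 to 0.03). The scramblase PLSCR1 was at 22.0, 19.6, 22.3 and 28.9 CPM, with -0.16 (-0.37 to 0.04) and 0.37 (0.17 to 0.58), or -0.24 in OVCAR3 with the trend on GC content and length removed. SP100, TRIM21 and PLSCR1 stayed within 2-fold in both pairs.

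**Figure D4:**
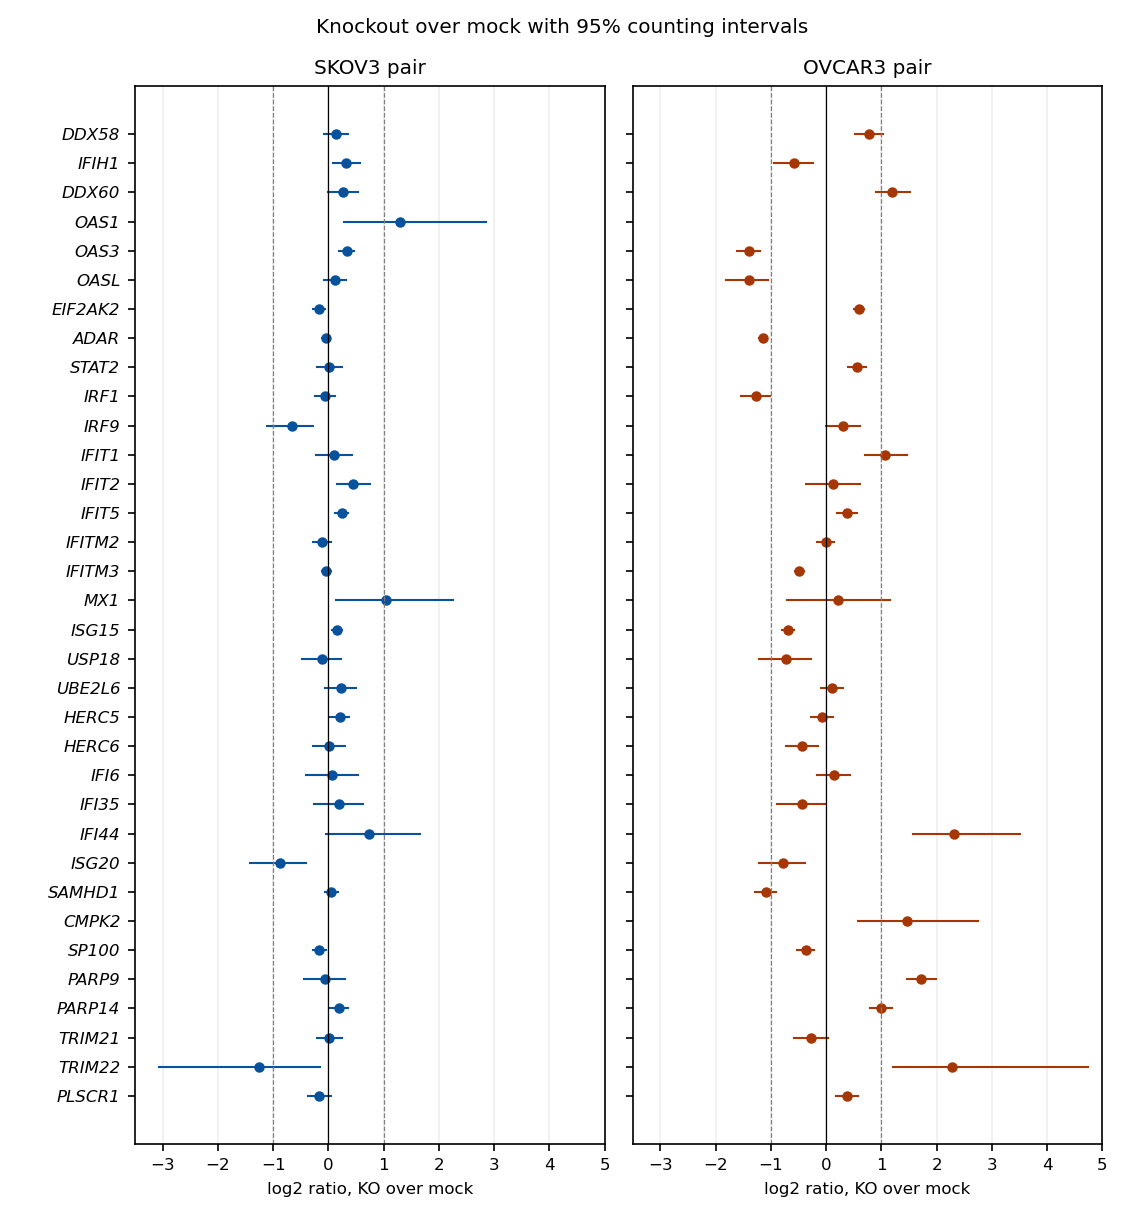
log2 ratio of KO over mock (points) with 95% counting intervals (lines) for the same 34 members, in the SKOV3 pair (left) and the OVCAR3 pair (right). Members not measured in a pair have no point there, dashed lines mark 2-fold, and the points lie closer to 0 on the left, where 3 members pass 2-fold, than on the right, where 11 do.

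Base composition moved with the OVCAR3 ratios, in members as in all genes. Across the 39 measured members the OVCAR3 log2 ratio and the GC content of the longest transcript had a Spearman rho of -0.445 (Pearson -0.442). Across 12491 protein-coding genes rho was -0.421. All of these points share the same 2 libraries, and genes are not independent replicates, so these values are descriptions. Protein-coding genes were split into 4 equal groups by GC content. Of the 8 members in the group of lowest GC content, up to 42.3% (DDX58, DDX60, EIF2AK2, IFI44, IFIT1, IFIT5, PLSCR1 and TRIM22), 8 were above 0, with a median of 0.92 against 0.45 for all genes of that group. In the next 2 groups the member medians were -0.07 and -0.12, against 0.09 and -0.38 for all genes. In the group of highest GC content, from 57.5%, which held DHX58, IFI35 and ISG15, the member median was -0.45 against -0.68. With a spline trend on GC content and length removed, 5 of the 39 members were higher and 2 (OASL and SAMHD1) lower, with 11.8% and 12.5% over all genes that have a trend value. The direction of IFIT2, IFIT3, IFIT5, IFI6 and PLSCR1 turned. OAS3, ADAR and IRF1 then had -0.92, -0.89 and -0.94, and DDX60 and IFIT1 0.76 and 0.81, while DHX58 and STAT2 stood at 1.41 and 0.80. IFI44, CMPK2, PARP9, TRIM22, OASL and SAMHD1 stayed past 2-fold under 8 of 8 settings, this one included. Mitochondrial share, NEAT1 level and epithelial sum, given above, also set the OVCAR3 KO library apart, and their part in these ratios was not tested.

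**Figure D5:**
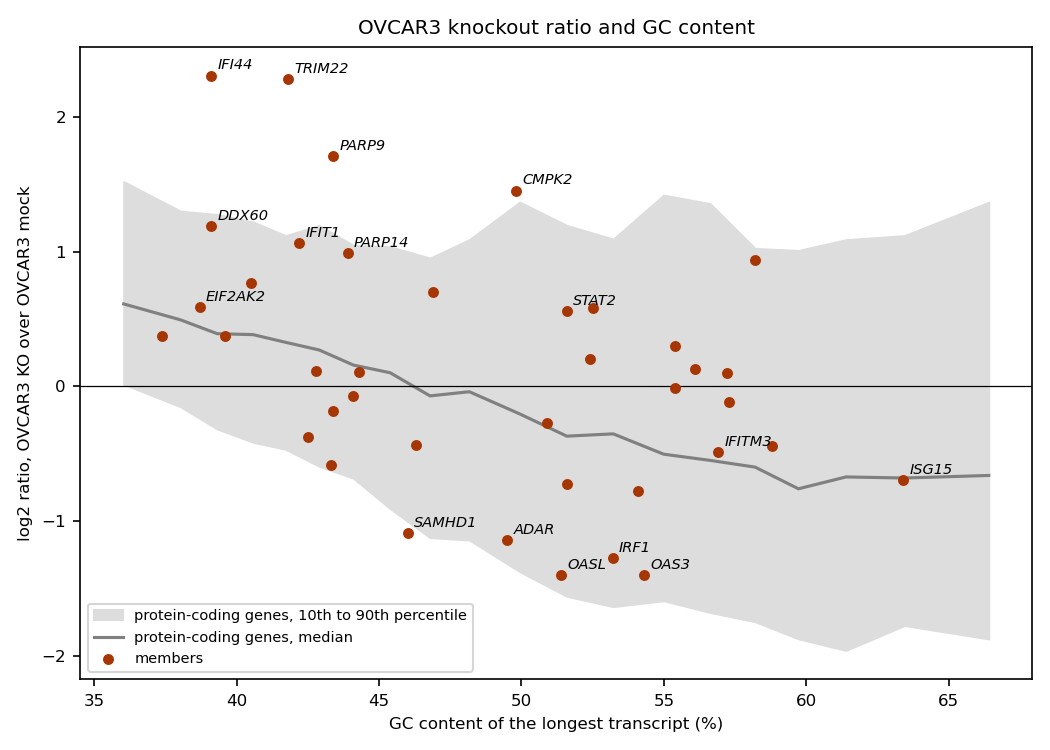
log2 ratio of OVCAR3 KO over mock against GC content of the longest transcript, for the 39 measured members (points, some labelled) and for protein-coding genes in 20 groups of rising GC content (line, median; band, 10th to 90th percentile). Most members lie inside the band, IFI44, TRIM22, PARP9 and CMPK2 lie above it, and SAMHD1 lies at its lower edge.

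Members with an ISRE core in their window had slightly higher median ratios than those without one in both pairs. In the OVCAR3 pair the 20 measured members with a core had a median of 0.12, with 3 higher and 1 lower, and the 12 without one in their window had -0.14, with 2 higher and 3 lower. With the trend on GC content and length removed the medians were -0.18 and 0.04, so the order of the groups turned. In the SKOV3 pair the medians were 0.13 over 18 and 0.02 over 12. Members that hold the core only with 1 base between its half-sites count here as without it. No test was made between these groups.

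Between the mock libraries the labels differed in a few members. Of 35 measured, BST2, UBE2L6 and IFI6 were higher in OVCAR3 mock and TRIM22 was lower, 8.57% and 2.86% of members, against 9.47% and 5.52% of 13721 measured genes. The log2 ratio of OVCAR3 mock over SKOV3 mock was 2.36 (1.54 to 4.16) for BST2, 1.22 (1.00 to 1.46) for UBE2L6 and 1.47 (1.13 to 1.87) for IFI6. IFIT5 and IFIT2 lay just under the rule in the other direction, at -0.98 (-1.14 to -0.82) and -0.93 (-1.35 to -0.55), and STAT2 at 0.87 (0.69 to 1.07). The median over members was 0.02. In the knockout libraries of the same label BST2, UBE2L6 and IFI6 kept this order, with every OVCAR3 library above every SKOV3 library.

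Tested over both lines, no member passed. edgeR's quasi-likelihood test with the line as a block and Benjamini-Hochberg adjustment (1 residual degree of freedom, the line as the sole replicate of the knockout) called 0 of 35 tested members and 0 of 13693 genes for the knockout, which is 0% of genes. At an unadjusted p under 0.05 there were 0 members and 147 genes, and the lowest adjusted p of a member was 0.957. DESeq2, limma-voom and robust edgeR called 0 members too. The lowest unadjusted p of a member in the same edgeR fit was 0.0521, for IFI44. For the difference between the labels (mean of both libraries), the same edgeR fit called 5 genes (0.0365%) and 0 members, 8 of them at an unadjusted p under 0.05, with the lowest adjusted p for BST2 (0.258, log2 difference 2.51 with a standard error of 0.71). This outcome turned on the OVCAR3 KO library. Without it, with the SKOV3 mock and KO libraries taken as replicates and the lone OVCAR3 library assumed to vary like them, edgeR called 18 of 35 members (51.4%), 11 higher and 7 lower in OVCAR3, and 46.7% of all genes. BST2 (2.58), IFI6 (1.46) and UBE2L6 (1.12) were among the higher and IFIT2 (-1.17), IFIT5 (-1.10) and PARP14 (-0.70) among the lower, all on the log2 scale, and the share of members was close to that of all genes. Between pairs, 15 of 34 members measured in both had ratios of opposite sign (44.1%), against 48.2% of 13294 genes. No test was made of this difference.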

How the data were processed

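Total RNA of 4 cultures (mock and KO of the lines SKOV3 and OVCAR3, 1 library each, grouped by the sample titles) was sequenced from libraries made with a directional kit, per the labels' protocols. The authors deposited a raw, unscaled read count for each gene symbol; TopHat and GRCh38 were used per the submitters' processing notes. Counter, annotation and strand use: not given in the sources used here. Each table held 58173 rows and 52402 symbols; repeated symbols (2 members, IFI27 and IRF7) were summed. Nothing beyond the labels says how cultures were kept apart, so p-values reflect only spread between libraries, which may be technical.

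TMM factors (1.02, 1.04, 1.01 and 0.931 for SKOV3 mock and KO, then OVCAR3 mock and KO) came from edgeR 4.0.16 in R 4.3.3, over genes with at least 1 CPM in at least 2 libraries; the 13693 tested genes passed the same filter. Calls used a 2-fold size rule within a line and edgeR's quasi-likelihood test at an adjusted p of 0.05 over both. The 14 members outside the edgeR filter were not tested. Members, lists and the rule for naming genes (5 CPM in a library, or the size rule with 20 counts over a pair) were chosen with earlier results of these data known. GC content, length and shared 50-base stretches came from GENCODE transcripts, coordinates and promoters from RefSeq (GRCh38.p14). Alternatives were DESeq2 1.42.0, limma 3.58.1, other scalings, filters, prior counts of 0.5 and 5, and folds of 1.5 and 3. Others were removal of a trend on GC content and length (splines with 5 degrees of freedom) and, unplanned, leaving out the OVCAR3 KO library. Methods were tested on simulated data. Some genes of the upstream list, counted in its totals, are not reported here by name. The line was the block that pairs mock with KO in the test; the replicate number, 1 in every group, gave no further pairing.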

Additional observations from a re-analysis of the deposited data

Results flagged for a closer look

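In 5 members the ratios of KO over mock pointed in opposite directions in the 2 lines, with both 95% counting intervals away from 0. The OVCAR3 log2 ratio minus the SKOV3 one was 3.53 for TRIM22, 0.76 for EIF2AK2, -0.91 for IFIH1, -1.73 for OAS3 and -0.85 for ISG15. With 1 library per group this difference was not tested. TRIM22 rests on 24, 6, 4 and 24 counts. With the trend on GC content and length removed, the difference was 3.17 for TRIM22, 0.25 for EIF2AK2, -1.14 for IFIH1, -1.24 for OAS3 and -0.78 for ISG15.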

How the results depend on the processing

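In SKOV3, the 2 higher members became 1 with a prior count of 5, 0 with a minimum of 5 CPM and 0 with a 3-fold rule, and the 1 lower member became 0, 3 and 0 with a minimum of 5 CPM, a 1.5-fold and a 3-fold rule. In OVCAR3, the 6 higher members became 10 without a filter, 3 with a minimum of 5 CPM, 11 with 1.5-fold and 3 with 3-fold, and the 5 lower became 8 with 1.5-fold, 0 with 3-fold and 2 with the trend on GC content and length removed. Of all genes in OVCAR3, 30% were higher without a filter, 12.1% with 5 CPM, 33.5% with 1.5-fold and 15.2% with 3-fold, and 25.2%, 6.03% and 12.5% were lower with 1.5-fold, 3-fold and the trend removed. Fewer or more members pass a stricter or looser rule by construction; for the trend and the prior count the cause was not tested. The knockout effect over both lines called 0 members under all 10 alternatives. The difference between the lines called 0 members under 10 alternatives and 18 without OVCAR3 KO replicate 1. Over the ratios of named members, 496 values under alternatives moved by less than their counting interval, 48 moved more, and none of those called reversed. The OVCAR3 median of 0.10 was -0.10 with DESeq2 size factors, -0.01 with library totals, -0.17 with a minimum of 5 CPM, -0.14 with the trend removed and -0.19 with TMM factors from all genes. Depth limits the 9 members below 1 CPM in every library, for which no ratio was called. Leaving out a library of a pair leaves no ratio within that line.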
